A study of Mus musculus with 52 samples.

Results

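MEHP (mono-2-ethylhexyl phthalate) is the monoester that the body makes from the plasticiser di-2-ethylhexyl phthalate. The comparison described here set 4 arrays of primary mouse bone marrow stromal cultures exposed to MEHP for 4 days against 4 arrays of cultures given the DMSO vehicle for 4 days. The arrays were chosen by their labelled treatment and day, and make up 8 of the 52 arrays of the study. All genes with a probe set of their own on the array were members of the comparison, 22180 genes in all, of which 14911 passed the filter on low values and were tested.

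The cultures came from 8-week-old female C57BL/6J mice, and cells of 2 to 4 animals were pooled before plating. Pools 12, 15, 19 and 20 each gave 1 MEHP array and 1 vehicle array of day 4. From day 7 after plating every culture, vehicle included, was kept in osteoinductive medium with dexamethasone at 10 nM, insulin at 0.5 µg/ml, β-glycerol phosphate at 8 mM and ascorbate at 12.5 µg/ml. Vehicle cultures received 0.1% DMSO, and the labels give no dose for MEHP. Further arrays of the same pools served for direct comparison: MEHP and vehicle after 1 day, and at day 4 the thiazolidinedione rosiglitazone (Rosi, 100 nM) and the flame retardant triphenyl phosphate (TPhP, dose not given in the labels). The cultures were unsorted adherent marrow cells, so a level is an average over every cell type in the well, and fewer cells of a type and less RNA per cell cannot be told apart.

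Marrow stromal cells can become osteoblasts or adipocytes. PPARγ, a nuclear receptor that binds DNA as a heterodimer with RXR, drives adipocyte formation and switches on genes of fat storage, and its activation opposes osteoblast formation. MEHP is known as a ligand of PPARα and PPARγ, and rosiglitazone is a potent PPARγ ligand. The element that PPAR and RXR bind is built from repeats of the 6-base motif AGGTCA.

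RefSeq promoters (GRCm38.p6, 250 bases before to 50 bases after the start) were available for 9 of the 10 genes with the largest rises and 6 of the 10 with the largest falls. They were searched on both strands for AGGTCA, and AGGTCA was found in the promoters of 2 of the 9 rising genes and in none of the 6 falling genes. The 4 sequences below show both rises with a match, 1 rise without and 1 fall without; capitals mark AGGTCA.
Tmem182, chr1:40805351-40805650, + strand: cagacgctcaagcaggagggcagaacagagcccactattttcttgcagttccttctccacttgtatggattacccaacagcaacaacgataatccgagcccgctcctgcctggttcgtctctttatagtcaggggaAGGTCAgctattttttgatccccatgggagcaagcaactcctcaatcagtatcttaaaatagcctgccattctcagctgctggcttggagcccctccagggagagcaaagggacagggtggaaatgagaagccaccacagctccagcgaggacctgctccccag
Adig, chr2:158502362-158502661, + strand: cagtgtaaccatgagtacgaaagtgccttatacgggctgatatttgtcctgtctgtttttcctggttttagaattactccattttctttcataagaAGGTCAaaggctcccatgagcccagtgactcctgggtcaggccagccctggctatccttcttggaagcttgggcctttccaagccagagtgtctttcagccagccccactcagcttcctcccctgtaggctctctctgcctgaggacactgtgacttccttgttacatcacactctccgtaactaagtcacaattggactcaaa
Plin1, chr7:79732727-79733026, - strand: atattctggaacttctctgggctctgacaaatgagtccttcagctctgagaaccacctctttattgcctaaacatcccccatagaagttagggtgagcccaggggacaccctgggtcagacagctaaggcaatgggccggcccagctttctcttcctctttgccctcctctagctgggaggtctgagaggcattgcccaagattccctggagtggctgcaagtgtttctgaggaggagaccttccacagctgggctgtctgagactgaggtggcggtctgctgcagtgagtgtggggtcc
Fmod, chr1:134037004-134037303, + strand: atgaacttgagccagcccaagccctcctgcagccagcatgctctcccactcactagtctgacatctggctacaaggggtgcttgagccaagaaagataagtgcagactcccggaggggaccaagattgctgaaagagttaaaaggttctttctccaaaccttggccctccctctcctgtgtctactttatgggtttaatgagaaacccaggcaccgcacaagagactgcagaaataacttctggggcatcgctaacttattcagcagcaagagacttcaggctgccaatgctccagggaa
In Tmem182 the match lay 114 to 109 bases before the start, and in Adig, which encodes adipogenin, 154 to 149 bases before it. Over larger sets AGGTCA was found in 15.2% of the 1859 promoters of genes higher with MEHP, 11.6% of the 1760 promoters of genes lower with MEHP, 12.8% of the 14637 promoters of all genes tested and 16.3% of all 32851 promoters in the table. A direct repeat of AGGTCA with 1 base of any kind between the copies, which also holds the shorter motif, was found in 1 promoter of the genes higher with MEHP, in 0 of the genes lower with MEHP, in 0.0342% of the promoters of genes tested and in 0.0396% of all promoters. A match is a description of the letters in this window, and a missing match says nothing about binding elsewhere.

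The deposited values are log2 expression levels. Medians of the 8 arrays lay between 4.01 and 4.09, and no array had the values of another. Stromal progenitor markers averaged 8.42 to 8.58 on MEHP arrays and 8.08 to 8.76 on vehicle arrays, and macrophage markers averaged 9.04 to 9.78 and 9.51 to 9.92 in the same order, so the labelled stromal cells and macrophages were both present in every culture. A level below the median of the whole table, 4.05, is called near the floor here, because fold changes from such levels are imprecise. Differences are MEHP minus vehicle on the log2 scale, given with the standard error of the limma fit, and a gene is called where the Benjamini-Hochberg adjusted p over all 14911 genes was under 0.05. Values of 4 arrays follow the order of pools 12, 15, 19 and 20.

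The response differed in size between pools. The median difference of the genes called higher was 0.41 in pool 12, 0.42 in pool 15, 0.84 in pool 19 and 0.79 in pool 20. The median of the genes called lower was -0.23, -0.33, -0.75 and -0.72 in the same order. MEHP and vehicle arrays of the same pool deviated together from their group means, with correlations across genes of 0.43 to 0.48.

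Markers of neutrophils, of T and NK cells and of mast cells and basophils separated pool 12 from the others, while those of B cells did not (0.21 in pool 12, 0.25 to 0.62 elsewhere). The median difference over the 15 tested neutrophil genes was -2.29 in pool 12, and 0.25, 0.10 and 0.70 in pools 15, 19 and 20. The same held for 8 T and NK cell genes, at -1.89 in pool 12 and -0.02 to 0.56 elsewhere, and for 9 mast cell and basophil genes, at -1.91 in pool 12 and -0.08 to 0.77 elsewhere. Mcpt8, a basophil protease, had values of 3.64, 7.35, 3.92 and 4.37 with MEHP, against 7.84, 7.45, 4.77 and 4.63 with vehicle. S100a8, a neutrophil calcium-binding protein, had 7.47, 10.01, 8.27 and 9.08 with MEHP, against 9.83, 9.76, 8.17 and 8.35 with vehicle. None of these 3 lists held a gene called by limma over the 4 pools, and 0, 0 and 1 of their genes had an unadjusted p under 0.05. Without pool 15, 1 mast cell and basophil gene was called lower (Mcpt8, adjusted p = 0.0236), and without pool 12, 1 neutrophil gene was called higher; the part of these cells in the results below was not tested.

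**Figure D1:**
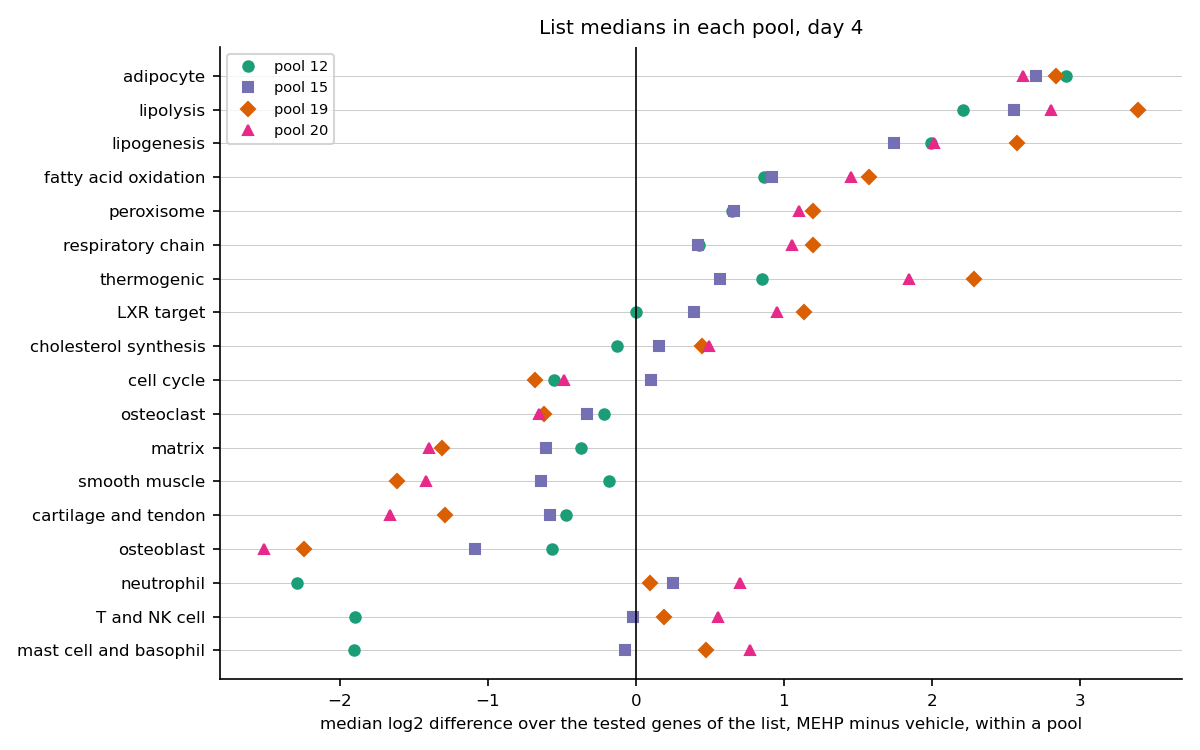
Median log2 difference, MEHP minus vehicle, over the tested genes of 18 lists (rows), computed within each pool (4 marks a row; x axis, log2 units). The adipocyte, lipolysis, lipogenesis, oxidation, peroxisome and respiratory chain lists lie right of 0 in all pools and the osteoblast list left of 0, with pools 19 and 20 farthest out for osteoblast genes, while neutrophil, T and NK cell and mast cell lists lie near -2 in pool 12 alone.

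After 4 days, 1807 genes were higher with MEHP (12.1% of genes tested) and 1741 were lower (11.7%). The median difference over all tested genes was -0.05. Among the genes called higher, 1678 moved the same way in all 4 pools, as did 1396 of the genes called lower. The lowest MEHP array exceeded the highest vehicle array for 1276 of the called-higher genes (70.6%), and the reverse held for 812 of the called-lower genes (46.6%), against 16.2% of all tested genes that did not overlap in either direction. Rises reached further than falls: 95 genes rose by at least 2 log2 units and 26 fell by as much, and 38 rose and 5 fell by at least 3. Counts rested on pools 19 and 20: without pool 19, 1011 genes were higher and 615 lower, and without pool 20, 949 were higher and 554 lower, whereas without pool 12 the counts were 1889 and 2101. A fit of the 8 arrays alone called 716 higher and 332 lower.

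The 10 largest rises, taken among genes that moved the same way in all pools, were all above 3.8 log2 units. Sptlc3, a subunit of the enzyme that starts sphingolipid synthesis, had values of 7.39, 8.38, 9.60 and 8.98 with MEHP, against 2.76, 3.51, 3.58 and 4.39 with vehicle, a difference of 5.03 ± 0.52 (adjusted p = 1e-09). The MEHP arrays lay at least 2 log2 units above every vehicle array, and 3 of the 4 vehicle arrays were near the floor. Cidec, which enlarges lipid droplets, had 10.93, 11.28, 11.80 and 11.95 with MEHP, against 4.52, 6.61, 7.49 and 8.46 with vehicle, a difference of 4.72 ± 0.80 (adjusted p = 1.49e-05). Thrsp, a regulator of fat synthesis, had 10.46, 10.55, 10.86 and 10.92 with MEHP, against 3.48, 6.54, 7.12 and 7.85 with vehicle, a difference of 4.45 ± 0.71 (adjusted p = 5.54e-06). For both genes the 4 MEHP arrays were close together and the vehicle arrays spread widely, lowest in pool 12, and the groups did not overlap. Plin1, the perilipin that coats fat cell droplets, had 9.76, 10.16, 11.11 and 10.92 with MEHP, against 4.59, 6.28, 7.00 and 7.27 with vehicle, a difference of 4.20 ± 0.42 (adjusted p = 5.19e-10). Lgals12, a galectin of adipocyte lipid droplets, had 8.67, 9.25, 10.21 and 9.83 with MEHP, against 4.09, 4.97, 5.87 and 6.03 with vehicle, a difference of 4.25 ± 0.37 (adjusted p = 1.72e-11). Neither gene's groups overlapped. The other rises were Aldh1a7, an aldehyde dehydrogenase (4.42 ± 0.50), Cox8b, a cytochrome oxidase subunit of brown fat and muscle (4.34 ± 0.51), Adig (3.93 ± 0.39), Tmem182 (3.92 ± 0.36) and Klb, the co-receptor for the hormone FGF21 (3.87 ± 0.38), with adjusted p from 7e-11 to 1.74e-08. Vehicle arrays of Cox8b and Adig were all near the floor.

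Several of the 10 largest falls were in genes known from bone, tendon or matrix-forming cells. C1qtnf3, a secreted protein of the C1q family, had values of 4.85, 4.86, 4.21 and 3.35 with MEHP, against 6.64, 7.48, 8.44 and 9.42 with vehicle, a difference of -3.68 ± 0.56 (adjusted p = 2.46e-06). Panx3, a channel protein of osteoblasts and chondrocytes, had 5.25, 6.56, 4.92 and 5.10 with MEHP, against 6.88, 8.91, 9.37 and 10.04 with vehicle, a difference of -3.34 ± 0.74 (adjusted p = 0.000595). Fmod, the collagen-binding proteoglycan fibromodulin, had 7.06, 7.56, 6.54 and 6.49 with MEHP, against 8.52, 9.54, 10.46 and 10.56 with vehicle, a difference of -2.86 ± 0.30 (adjusted p = 1.81e-09). In these 3 genes every MEHP array lay below every vehicle array, and the vehicle level was lowest in pool 12 and highest in pool 20. Sp7, which encodes osterix, a transcription factor needed for osteoblast formation, had 5.60, 6.78, 4.85 and 5.04 with MEHP, against 6.68, 8.47, 8.67 and 9.16 with vehicle, a difference of -2.68 ± 0.44 (adjusted p = 1.03e-05). The MEHP array of pool 15 was above the vehicle array of pool 12, so the groups overlapped. Sp7 was lower with MEHP within every pool, which the choice of the 10 falls required. The remaining falls were Tnn, the bone matrix protein tenascin-W (-3.28 ± 0.44), the citrate transporter Slc13a5 (-3.13 ± 0.58, 2 of 4 MEHP arrays near the floor), the secreted factor Ndnf (-3.003 ± 0.49), the proteoglycan Aspn (-2.80 ± 0.35), the bone growth factor Clec11a (-2.79 ± 0.33) and the ATP-gated channel P2rx2 (-2.67 ± 0.39), with adjusted p from 2e-08 to 5.37e-05.

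**Figure D2:**
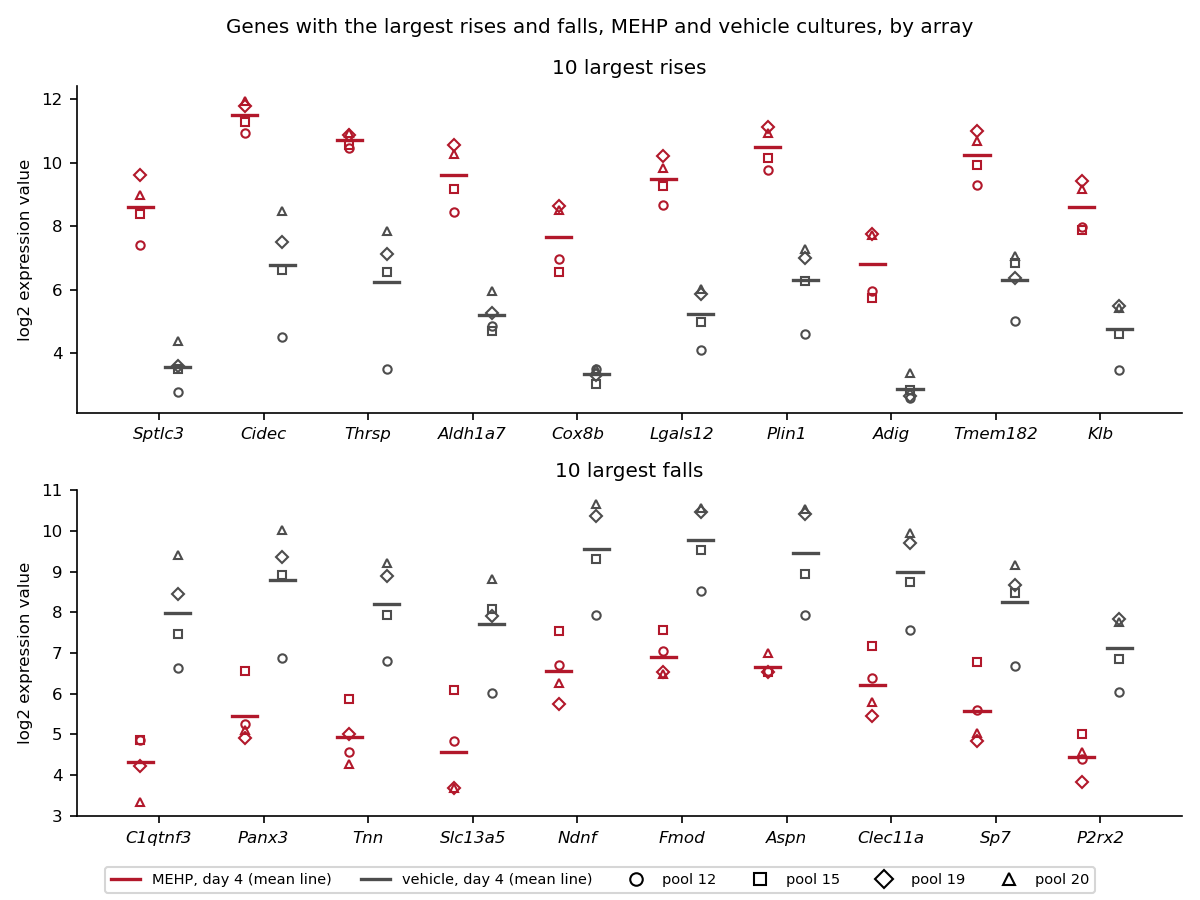
Log2 expression value (y axis) on each of the 4 MEHP arrays (left, red) and 4 vehicle arrays (right, grey) of day 4 for the 10 largest rises (top) and falls (bottom); marks give the pool and lines the group mean. MEHP and vehicle arrays do not overlap for any of the 10 rises, and for the falls they overlap in Slc13a5 and Sp7.

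Among nuclear receptors and their partners, 8 of 12 tested genes rose and 1 fell. Pparg itself had 9.66, 9.72, 10.45 and 10.20 with MEHP, against 8.56, 8.78, 9.17 and 9.20 with vehicle, a difference of 1.08 ± 0.14 (adjusted p = 7.71e-08). Cebpa, the C/EBP factor that acts with PPARγ in fat cells, had 9.23, 9.50, 10.24 and 10.24 with MEHP, against 8.42, 8.56, 9.01 and 8.91 with vehicle, a difference of 1.08 ± 0.15 (adjusted p = 4.56e-07). Both were higher in all pools without overlap. Ppargc1a, the coactivator of mitochondrial gene programmes, had 5.60, 5.16, 6.74 and 6.78 with MEHP, against 3.02, 3.35, 3.06 and 3.46 with vehicle, a difference of 2.85 ± 0.30 (adjusted p = 1.94e-09), and all vehicle arrays were near the floor. The oxysterol receptor LXRα (Nr1h3) rose by 0.86 ± 0.15 (adjusted p = 2.41e-05) and Rxrg by 0.86 ± 0.18 (adjusted p = 0.00027). Ppara rose by 1.28 ± 0.33 (adjusted p = 0.00277, and 0.0901 without pool 20). The main RXR partner Rxra differed by 0.19 ± 0.09 (adjusted p = 0.123), Rxrb by 0.13 ± 0.08 (adjusted p = 0.26) and Ppard by 0.08 ± 0.11 (adjusted p = 0.67), none of which passed the threshold. The member that fell, Cebpd, a C/EBP factor of early fat cell formation, differed by -0.47 (adjusted p = 0.0386), and no member was called lower without pool 12, 19 or 20, after loess normalisation, without the filter on low values or in the fit of the 8 arrays alone.

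All 26 tested adipocyte genes rose, with a median difference of 2.74. Mean levels over the list were 9.06 to 10.1 on MEHP arrays and 6.24 to 7.43 on vehicle arrays. Groups did not overlap for 25 of the 26 genes, against 16.2% of all tested genes. Cfd and Acsl1 were not analysed here. Unlike most other lists, its median difference was similar across pools, from 2.61 in pool 20 to 2.91 in pool 12. Trarg1, which regulates the traffic of the glucose transporter GLUT4, had 9.46, 9.50, 10.24 and 10.04 with MEHP, against 6.25, 6.18, 7.20 and 7.31 with vehicle, a difference of 3.08 ± 0.20 (adjusted p = 8.82e-15). Slc2a4, GLUT4 itself, differed by 3.65 ± 0.38 (adjusted p = 1.12e-09). Hcar1, the lactate receptor of fat cells, had 8.58, 8.72, 10.16 and 9.79 with MEHP, against 4.99, 5.28, 6.19 and 6.25 with vehicle, a difference of 3.64 ± 0.29 (adjusted p = 5.46e-12). Both groups of values were far apart in Trarg1 and Hcar1, by more than 2 log2 units in each.

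Secreted and other characteristic fat cell products rose in all 4 pools. Adipoq, the hormone adiponectin, had 9.52, 9.91, 10.02 and 10.06 with MEHP, against 7.61, 8.71, 8.71 and 8.76 with vehicle, a difference of 1.43 ± 0.33 (adjusted p = 0.000948). Its vehicle level was lowest in pool 12 and alike in the other 3 pools. Retn, the hormone resistin, had 8.45, 8.82, 10.74 and 10.41 with MEHP, against 4.95, 6.01, 6.16 and 6.90 with vehicle, a difference of 3.60 ± 0.55 (adjusted p = 3.13e-06). Lep, leptin, differed by 1.97 ± 0.37 (adjusted p = 6.41e-05) from vehicle arrays near the floor. Car3, a carbonic anhydrase abundant in fat, had 12.27, 12.46, 12.56 and 12.73 with MEHP, against 6.57, 10.22, 11.15 and 11.52 with vehicle, a difference of 2.64 ± 0.63 (adjusted p = 0.00145, and 0.13 in the fit of the 8 arrays alone). The pool 12 vehicle array was the lowest for all 4 genes.

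Genes of fatty acid uptake rose in 7 of 12 cases. Fabp4, the fatty acid carrier of adipocytes, had 12.16, 12.21, 12.36 and 12.30 with MEHP, against 9.52, 9.97, 10.19 and 10.63 with vehicle, a difference of 2.18 ± 0.20 (adjusted p = 4.66e-11). Cd36, a fatty acid translocase, had 11.37, 11.23, 11.67 and 11.53 with MEHP, against 9.88, 9.49, 9.66 and 9.82 with vehicle, a difference of 1.74 ± 0.16 (adjusted p = 6.29e-11). Lpl, lipoprotein lipase, had 11.96, 11.74, 12.19 and 12.04 with MEHP, against 11.07, 10.98, 11.22 and 11.10 with vehicle, a smaller difference of 0.89 ± 0.10 (adjusted p = 2.88e-09). All 3 genes rose in every pool, did not overlap and also stood in the adipocyte list. The fatty acid transporter Slc27a1 rose by 3.16 ± 0.32 (adjusted p = 7.67e-10). Slc27a3 and Acsl5 were the 2 members called lower, a count that was 1 without pool 12 and 0 without pool 19 or pool 20.

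Fat synthesis genes rose in 13 of 17 cases, with a median of 2.02. Mlxipl, the carbohydrate-responsive transcription factor ChREBP, had 7.20, 7.30, 8.04 and 8.05 with MEHP, against 4.27, 4.92, 4.98 and 4.97 with vehicle, a difference of 2.86 ± 0.26 (adjusted p = 4.66e-11). Fasn, fatty acid synthase, had 11.32, 11.61, 12.40 and 12.34 with MEHP, against 8.64, 8.73, 9.04 and 9.55 with vehicle, a difference of 2.93 ± 0.27 (adjusted p = 6.52e-11). Acaca, which makes malonyl-CoA for that enzyme, differed by 2.57 ± 0.25 (adjusted p = 2.69e-10). The MEHP and vehicle arrays of these genes were separated in every pool. Among enzymes of triglyceride assembly, of which Agpat2 and Dgat2 stood in the adipocyte list, the differences were those of Agpat2 (2.84 ± 0.25), Dgat1 (2.40 ± 0.26) and Dgat2 (3.62 ± 0.38), with adjusted p of 2.09e-11, 2.44e-09 and 1.43e-09. Gpd1, which supplies the glycerol backbone and also stood in the adipocyte list, had 11.57, 11.66, 12.11 and 12.07 with MEHP, against 6.81, 7.89, 8.50 and 9.07 with vehicle, a difference of 3.79 ± 0.51 (adjusted p = 3.26e-07). The 4 uncalled members were the elongases Elovl5 and Elovl6 and the polyunsaturated fatty acid desaturases Fads1 and Fads2, with differences of -0.23 to 0.54.

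All 8 tested lipolysis genes rose, with a median of 2.71 and no overlap between groups in any of them (16.2% of all tested genes). Pnpla2, Lipe, Plin1 and Cidec also stood in the adipocyte list. Pnpla2, the first lipase of triglyceride breakdown, had 11.10, 11.32, 12.004 and 11.67 with MEHP, against 9.43, 9.14, 9.16 and 9.51 with vehicle, a difference of 2.21 ± 0.19 (adjusted p = 1.36e-11). Its inhibitor G0s2 had 8.34, 8.55, 9.45 and 9.17 with MEHP, against 5.75, 5.86, 6.31 and 6.38 with vehicle, a difference of 2.80 ± 0.23 (adjusted p = 9.06e-12), and its coactivator Abhd5 differed by 1.57 ± 0.14 (adjusted p = 1.46e-11). Activators and inhibitors of lipolysis were thus both higher. The lipases Lipe (2.40 ± 0.26) and Mgll (2.62 ± 0.30) and the phosphodiesterase Pde3b, through which insulin restrains lipolysis (3.44 ± 0.31), rose with adjusted p of 2.44e-09, 5.86e-09 and 4.66e-11.

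Fatty acid oxidation genes rose in 22 of 24 cases, with a median of 1.18. The lowest list mean on a MEHP array was 8.82 and the highest on a vehicle array was 7.94. Acadm, the medium-chain acyl-CoA dehydrogenase, had 10.85, 11.09, 11.63 and 11.57 with MEHP, against 9.65, 9.55, 9.72 and 9.78 with vehicle, a difference of 1.61 ± 0.17 (adjusted p = 1.8e-09). Ucp3, a mitochondrial carrier, had 5.32, 5.66, 6.38 and 6.79 with MEHP, against 3.54, 3.65, 3.59 and 4.08 with vehicle, a difference of 2.32 ± 0.25 (adjusted p = 2.88e-09). Of its 4 vehicle arrays 3 were near the floor. Angptl4, a secreted lipase inhibitor and a sensitive PPAR target, had 10.63, 10.35, 10.43 and 10.26 with MEHP, against 9.45, 8.92, 8.00 and 7.92 with vehicle, a difference of 1.84 ± 0.18 (adjusted p = 1.81e-10). The MEHP values of Angptl4 were alike in all pools, while its vehicle values were higher in pools 12 and 15. The mitochondrial entry enzyme Cpt1a had 8.995, 8.61, 8.30 and 8.27 with MEHP, against 8.88, 8.25, 8.21 and 8.19 with vehicle, and was not called (0.16 ± 0.15, adjusted p = 0.482). Pdk4, a kinase that spares glucose during fat oxidation, rose by 0.60 ± 0.18 (adjusted p = 0.0121), a call that was lost without pool 12 (adjusted p = 0.0844) or pool 19 (0.0841).

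Peroxisome genes rose in 16 of 19 cases and respiratory chain subunits in 22 of 22, with medians of 0.97 and 0.77. Pex11a, which drives peroxisome division, had 6.75, 6.46, 7.49 and 7.14 with MEHP, against 5.46, 5.25, 4.56 and 4.97 with vehicle, a difference of 1.90 ± 0.21 (adjusted p = 2.63e-09). Ephx2, an epoxide hydrolase found in peroxisomes and cytosol, differed by 2.55 ± 0.34 (adjusted p = 2.63e-07), and Pex16, a membrane assembly factor, by 1.77 ± 0.20 (adjusted p = 7.58e-09). Cyc1, a subunit of complex III, had 8.17, 8.46, 9.26 and 9.10 with MEHP, against 7.37, 7.67, 7.21 and 7.40 with vehicle, a difference of 1.33 ± 0.18 (adjusted p = 3.27e-07). Ndufs1 of complex I differed by 0.96 ± 0.14 (adjusted p = 8.44e-07) and Atp5b of the ATP synthase by 0.53 ± 0.08 (adjusted p = 9.02e-07). Both lists had larger medians in pools 19 and 20, at 1.05 to 1.20, than in pools 12 and 15, at 0.42 to 0.66.

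Among genes tied to brown fat, 8 of 10 tested genes rose (median 1.27), a count of 5 without pool 20. Cox8b had 6.97, 6.56, 8.65 and 8.51 with MEHP, against 3.49, 3.04, 3.32 and 3.49 with vehicle. Elovl3, an elongase of brown fat, had 5.06, 4.80, 7.70 and 7.48 with MEHP, against 3.19, 2.94, 3.11 and 3.33 with vehicle, a difference of 3.12 ± 0.53 (adjusted p = 1.76e-05). Cidea, a droplet protein of brown fat, had 5.49, 4.95, 7.45 and 7.05 with MEHP, against 3.25, 3.70, 3.66 and 3.98 with vehicle, a difference of 2.59 ± 0.48 (adjusted p = 6.07e-05). In each of the 3 genes the MEHP arrays of pools 19 and 20 were more than 1 log2 unit above those of pools 12 and 15. All vehicle arrays of these genes were near the floor. Ucp1, the uncoupling protein that defines brown fat, had 3.298, 3.63, 4.28 and 3.96 with MEHP, against 3.22, 3.46, 3.32 and 3.304 with vehicle. Ucp1 was near the floor in both groups except on the pool 19 MEHP array, overlapped, and was not called (0.47 ± 0.20, adjusted p = 0.0858; 0.0122 without pool 15).

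Targets of LXR, the receptor that senses oxysterols, rose in 6 of 13 cases (median 0.60). Among them Srebf1 and Scd1 also stood in the fat synthesis list. Srebf1, the transcription factor of fat synthesis, had 8.43, 8.87, 9.78 and 9.54 with MEHP, against 7.32, 7.42, 7.50 and 7.65 with vehicle, a difference of 1.68 ± 0.19 (adjusted p = 1.14e-08). Scd1, the main stearoyl-CoA desaturase, had 12.22, 12.21, 12.57 and 12.57 with MEHP, against 8.92, 10.47, 10.77 and 11.33 with vehicle, a difference of 2.02 ± 0.28 (adjusted p = 3.95e-07). The cholesterol exporter Abca1 had 9.40, 9.18, 9.93 and 9.75 with MEHP, against 9.16, 8.55, 8.75 and 8.62 with vehicle, a difference of 0.80 ± 0.16 (adjusted p = 0.000197). Its relative Abcg1 had 10.21, 9.60, 9.62 and 9.31 with MEHP, against 10.21, 9.31, 8.49 and 8.36 with vehicle, and was not called (0.60 ± 0.24, adjusted p = 0.0604), but was with pool as a block (0.0128) or without pool 12 (0.00116). Abcg1 was equal in both arrays of pool 12 and about 1 log2 unit higher with MEHP in pools 19 and 20. The list median ran likewise, from 0.00 in pool 12 to 1.14 in pool 19. Other members went the opposite way. Mylip was lower with MEHP in every pool and was not called (-0.29 ± 0.12, adjusted p = 0.0864), but was with pool as a block (0.0109). Pltp, Smpdl3a, Apoe and Apoc2 differed by -0.22 to -0.02 and were not called.

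Cholesterol synthesis genes did not move as 1 group: 6 of 16 rose and 2 fell, with a median of 0.03. Over all genes tested 12.1% rose and 11.7% fell, so the 2 falls were near that share. Insig1, which holds back the sterol-sensing SREBP factors, had 10.77, 11.27, 11.96 and 11.79 with MEHP, against 10.11, 9.96, 9.81 and 9.91 with vehicle, a difference of 1.50 ± 0.21 (adjusted p = 4.56e-07). Lss, lanosterol synthase, differed by 1.36 ± 0.25 (adjusted p = 5.47e-05) and Hmgcs1, at the head of the pathway, by 0.66 ± 0.15 (adjusted p = 0.000663). The sterol enzymes Msmo1 (-0.45 ± 0.11) and Ebp (-0.37 ± 0.09) fell, with adjusted p of 0.0021 and 0.00262; Msmo1 was not called without pool 19 (adjusted p = 0.056), nor Ebp without pool 20 (0.0722). Sqle, Fdft1, Mvd and Fdps differed by 0.00 to 0.04.

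Of 8 retinoid targets 2 rose and 2 fell, beside 12.1% and 11.7% of all genes tested. Rarb, a retinoic acid receptor, had 5.38, 4.48, 5.31 and 5.45 with MEHP, against 3.42, 3.65, 3.36 and 3.83 with vehicle, a difference of 1.59 ± 0.22 (adjusted p = 4.08e-07). All vehicle arrays of Rarb were near the floor. Crabp2, a retinoic acid carrier, fell by 1.15 ± 0.22 (adjusted p = 9.4e-05). Cyp26b1, which degrades retinoic acid, differed by -0.68 ± 0.21 (adjusted p = 0.012), a call lost without pool 19 (0.143) or pool 20 (0.247). Tgm2, a transglutaminase, differed by 0.87 ± 0.27 (adjusted p = 0.014; 0.101 without pool 19 and 0.171 without pool 20).

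**Figure D3:**
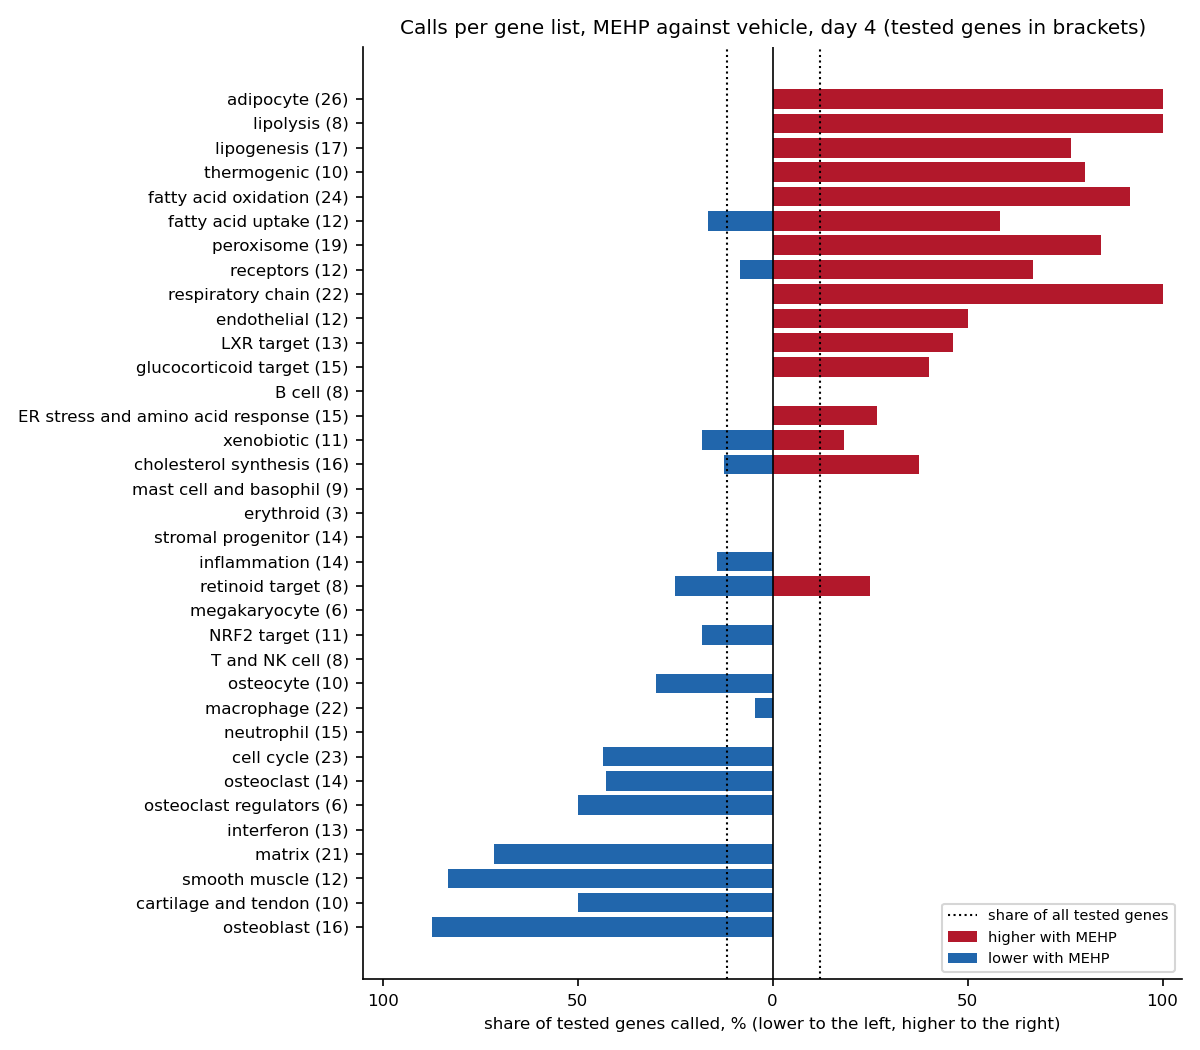
Share of tested genes called higher (right, red) and lower (left, blue) with MEHP against vehicle at day 4 (x axis, percent) in 35 gene lists, ordered by median difference; dotted lines mark the shares over all genes tested, 12.1% higher and 11.7% lower. All tested adipocyte, lipolysis and respiratory chain genes were called higher, and 14 of 16 osteoblast genes were called lower.

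Osteoblast genes fell in 14 of 16 cases, with a median of -1.66, and none rose. Mean levels over the list were 6.93 to 7.84 on MEHP arrays and 7.92 to 9.42 on vehicle arrays. Alpl, the phosphatase that frees phosphate for mineral, had 8.32, 8.65, 7.85 and 7.94 with MEHP, against 9.39, 10.40, 10.96 and 11.17 with vehicle, a difference of -2.29 ± 0.27 (adjusted p = 2.11e-08). Col1a1, the main collagen chain of bone, had 10.38, 10.81, 10.17 and 10.30 with MEHP, against 11.11, 11.69, 12.19 and 12.25 with vehicle, a difference of -1.39 ± 0.18 (adjusted p = 1.14e-07). Pth1r, the parathyroid hormone receptor, had 6.57, 7.06, 6.15 and 6.25 with MEHP, against 7.54, 8.57, 9.07 and 9.41 with vehicle, a difference of -2.14 ± 0.30 (adjusted p = 6.95e-07). In all 3 genes the groups did not overlap, and the fall was smallest in pool 12 and largest in pools 19 and 20.

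Ibsp, bone sialoprotein, had 10.49, 11.33, 8.16 and 8.51 with MEHP, against 11.83, 12.40, 12.27 and 12.55 with vehicle, a difference of -2.64 ± 0.62 (adjusted p = 0.00113, and 0.069 without pool 20). The fall in Ibsp was near 1 log2 unit in pools 12 and 15 and near 4 in pools 19 and 20. The homeobox factor Dlx5 fell by 1.64 ± 0.24 (adjusted p = 1.65e-06), the bone morphogenetic protein Bmp4 by 1.68 ± 0.25 (adjusted p = 2.03e-06), the sphingomyelinase Smpd3 by 2.13 ± 0.32 (adjusted p = 2.18e-06), and the bone proteoglycan Omd by 2.61 ± 0.51 (adjusted p = 0.000118). Bglap, osteocalcin, was near the floor on 4 of the 8 arrays, at 3.44, 4.23, 4.18 and 3.94 with MEHP, against 3.74, 4.54, 3.94 and 4.42 with vehicle, and was not called (-0.21 ± 0.23, adjusted p = 0.573). Runx2, Spp1 and Bglap2 were not analysed here. The list median was -0.56 in pool 12, -1.09 in pool 15, -2.24 in pool 19 and -2.52 in pool 20.

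Of 10 osteocyte genes 3 fell, beside 11.7% of all genes tested. The count was 1 without pool 20 and 0 in the fit of the 8 arrays alone. Pdpn, an early osteocyte membrane protein, fell by 1.28 ± 0.31 (adjusted p = 0.00144). Dmp1, a mineral-regulating protein, had 6.02, 8.34, 4.37 and 5.37 with MEHP, against 7.54, 9.76, 6.57 and 7.65 with vehicle. Dmp1 was lower with MEHP by more than 1 log2 unit in every pool, but pools differed so much in level that the groups overlapped and it was not called (-1.86 ± 0.92, adjusted p = 0.148); with pool as a block the adjusted p was 0.0319, and without pool 15 it was 0.0437. Sost, the osteocyte inhibitor of Wnt signalling, differed by -0.26 and was not called.

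Osteoclast genes fell in 6 of 14 cases (median -0.40), a count of 8 with pool as a block, 3 without pool 20 and 1 in the fit of the 8 arrays alone. The chloride transporter Clcn7 differed by -0.54 ± 0.21 and was not called (adjusted p = 0.0554; 0.00116 with pool as a block and 0.0115 without pool 12). Ctsk, the collagen-digesting protease of osteoclasts, had 8.31, 7.51, 6.14 and 7.02 with MEHP, against 9.17, 8.77, 8.94 and 9.38 with vehicle, a difference of -1.82 ± 0.28 (adjusted p = 3.71e-06). Dcstamp, needed for osteoclast fusion, had 4.29, 4.91, 4.62 and 4.39 with MEHP, against 4.96, 5.42, 6.02 and 6.30 with vehicle, a difference of -1.12 ± 0.18 (adjusted p = 5.54e-06). Neither gene overlapped between groups. Nfatc1, the leading transcription factor of osteoclasts, fell by 0.41 ± 0.08 (adjusted p = 0.000117), and Ocstamp by 1.04 ± 0.22 (adjusted p = 0.000473, and 0.0792 without pool 20). Acp5, the acid phosphatase used to stain osteoclasts, had 9.13, 8.90, 8.77 and 8.96 with MEHP, against 8.43, 9.09, 9.01 and 9.24 with vehicle, and did not change detectably (0.00 ± 0.26, adjusted p = 0.996). The gelatinase Mmp9 likewise differed by 0.02 ± 0.60 (adjusted p = 0.989).

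Of 6 genes that regulate osteoclasts 3 fell. Tnfrsf11b, osteoprotegerin, which blocks the osteoclast cytokine RANKL, had 6.60, 6.90, 5.20 and 5.95 with MEHP, against 7.61, 8.04, 7.61 and 7.69 with vehicle, a difference of -1.58 ± 0.32 (adjusted p = 0.000178). Tnfsf11, RANKL itself, had 6.33, 6.66, 5.82 and 6.12 with MEHP, against 6.16, 6.33, 6.88 and 6.61 with vehicle, higher with MEHP in pools 12 and 15 and lower in pools 19 and 20, and was not called (-0.26 ± 0.25, adjusted p = 0.503). Csf1, the macrophage growth factor, fell by 0.61 ± 0.13 (adjusted p = 0.000611, and 0.0881 without pool 19). Wnt16, an inhibitor of osteoclast formation, fell by 0.63 ± 0.16 (adjusted p = 0.00244), a gene of low level in both groups.

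Matrix genes fell in 15 of 21 cases (median -0.92), and in 8 in the fit of the 8 arrays alone. Tnc, tenascin-C, had 8.88, 9.14, 7.91 and 8.36 with MEHP, against 9.83, 10.69, 11.42 and 11.59 with vehicle, a difference of -2.31 ± 0.30 (adjusted p = 1.81e-07). Postn, periostin, had 9.32, 9.01, 8.39 and 8.23 with MEHP, against 9.93, 10.91, 11.51 and 11.67 with vehicle, a difference of -2.26 ± 0.31 (adjusted p = 4.99e-07). The list mean lay between 8.83 and 8.90 on the 4 MEHP arrays and between 9.16 and 10.4 on the vehicle arrays, so this mean over 21 genes varied less between pools with MEHP than with vehicle, while single genes such as Postn and Tnc varied by more than 1 log2 unit between MEHP arrays. The proteoglycans Lum (-1.72 ± 0.33) and Dcn (-1.39 ± 0.28) and the collagen Col3a1 (-1.12 ± 0.18) fell, with adjusted p of 0.000118, 0.00015 and 4.14e-06. The collagen VI chains Col6a1, Col6a2 and Col6a3 were not called, at differences of -0.07 to 0.63.

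Cartilage and tendon genes fell in 5 of 10 cases (median -1.001). Comp, a cartilage matrix protein, had 6.10, 6.37, 5.53 and 4.79 with MEHP, against 7.41, 7.86, 8.44 and 8.68 with vehicle, a difference of -2.40 ± 0.35 (adjusted p = 1.33e-06). Scx, the tendon transcription factor scleraxis, fell by 1.59 ± 0.24 (adjusted p = 2.19e-06) and Sox9, that of cartilage, by 1.50 ± 0.24 (adjusted p = 7.86e-06). Contractile genes of smooth muscle and myofibroblasts fell in 10 of 12 cases (median -0.97), but in 2 in the fit of the 8 arrays alone. Acta2, α-smooth muscle actin, had 10.40, 10.85, 10.65 and 10.82 with MEHP, against 10.49, 11.50, 12.10 and 12.07 with vehicle, a difference of -0.86 ± 0.18 (adjusted p = 0.000248, and 0.0505 without pool 19). Its values were alike in pool 12 and more than 1 log2 unit lower with MEHP in pools 19 and 20. Myocd, a coactivator of contractile genes, fell by 0.98 ± 0.19 (adjusted p = 0.000101), while Myh11, the smooth muscle myosin, differed by 0.04 ± 0.21 (adjusted p = 0.926).

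Markers of stromal progenitors were not called in either direction (0 of 14; the unadjusted p was under 0.05 for 4 of them, and with pool as a block 1 was higher and 2 were lower). Cxcl12, the chemokine of the marrow niche, had 11.90, 12.05, 11.86 and 12.02 with MEHP, against 11.59, 12.01, 12.15 and 12.22 with vehicle (-0.04 ± 0.12, adjusted p = 0.877). Lepr, the leptin receptor that marks marrow stromal cells, had 10.13, 10.01, 10.34 and 10.46 with MEHP, against 7.72, 8.94, 9.44 and 9.58 with vehicle, higher with MEHP in every pool, by more than 2 log2 units in pool 12 and about 1 elsewhere, with no overlap but without a call (1.32 ± 0.54, adjusted p = 0.0739; 0.0265 with pool as a block). Nt5e, a stromal surface enzyme, differed by -0.76 ± 0.35 (adjusted p = 0.114; 0.00125 with pool as a block).

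Macrophage markers showed 1 call in 22, lower with MEHP, and 2 with pool as a block, when Cd68, a lysosomal membrane protein, had an adjusted p of 0.0158 (difference -0.49 ± 0.23, adjusted p = 0.12 without the block). Csf1r, the receptor for CSF1, had 10.71, 10.86, 10.74 and 10.83 with MEHP, against 10.69, 10.68, 10.95 and 10.88 with vehicle (-0.01 ± 0.17, adjusted p = 0.971). The list mean was 9.04 to 9.78 on MEHP arrays and 9.51 to 9.92 on vehicle arrays. The called gene, Lyz2, differed by -0.29 ± 0.11 at an adjusted p of 0.0498, and was not called without pool 19 (0.393) or pool 20 (0.29) or after loess normalisation. No B cell, erythroid or megakaryocyte gene was called (0 of 8, 0 of 3 and 0 of 6; 0, 1 and 0 with an unadjusted p under 0.05). With pool as a block 1 B cell gene was higher (Ms4a1, adjusted p = 0.0273) and 1 lower (Cd22, 0.0271). The block also called 1 erythroid gene lower and 0 megakaryocyte genes. Without pool 12, 3 B cell genes were called higher, among them the receptor component Cd79a (adjusted p = 0.00136), and 1 erythroid gene lower.

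Endothelial genes rose in 6 of 12 cases (median 0.76). Kdr, the main VEGF receptor, had 7.14, 6.47, 7.65 and 8.21 with MEHP, against 5.25, 5.66, 6.32 and 6.16 with vehicle, a difference of 1.52 ± 0.45 (adjusted p = 0.0103). Cdh5, the cadherin of endothelial junctions, had 9.43, 8.70, 9.62 and 10.26 with MEHP, against 8.46, 8.02, 8.87 and 8.91 with vehicle (0.94 ± 0.36, adjusted p = 0.053; 0.0237 with pool as a block). Both were higher in every pool, and most in pool 20. No endothelial gene was called without pool 19 or without pool 20, and 9 were with pool as a block.

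Cell cycle genes fell in 10 of 23 cases (median -0.40), and none rose. Cdk1, the mitotic kinase, had 6.60, 7.21, 6.33 and 6.70 with MEHP, against 7.21, 7.29, 7.11 and 7.23 with vehicle, a difference of -0.50 ± 0.14 (adjusted p = 0.0054). Rrm2, which makes nucleotides for DNA synthesis, had 7.10, 7.58, 6.80 and 6.98 with MEHP, against 7.86, 7.63, 7.59 and 7.79 with vehicle, a difference of -0.60 ± 0.16 (adjusted p = 0.00491). When its probe sets were averaged, Rrm2 differed by -0.26 and was not called (adjusted p = 0.175). Cdk1 and Rrm2 were nearly equal between groups in pool 15. The count was 4 without pool 12, 18 without pool 15, and 0 without pool 19, without pool 20 or in the fit of the 8 arrays alone, and Mki67, a proliferation marker, differed by -0.12.

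Dexamethasone was in every culture, and 6 of 15 glucocorticoid targets were higher with MEHP (2 without pool 19, 3 without pool 20). Angptl4, which also stood in the fatty acid oxidation list, was among the 6. Over all 14911 genes tested 1807 (12.1%) were higher, 1011 without pool 19 and 949 without pool 20. Glul, glutamine synthetase, had 11.00, 11.16, 11.46 and 11.37 with MEHP, against 10.47, 10.35, 10.69 and 10.64 with vehicle, a difference of 0.71 ± 0.15 (adjusted p = 0.000371). Fkbp5, Per1 and Tsc22d3, which the glucocorticoid receptor switches on in many tissues, differed by 0.19, 0.03 and -0.31 and were not called. Of 15 genes of the ER stress and amino acid response 4 rose (2 without pool 19 or pool 20): the serine synthesis enzyme Psat1 had 8.38, 7.62, 8.20 and 7.85 with MEHP, against 7.50, 7.17, 6.59 and 6.93 with vehicle, a difference of 0.96 ± 0.15 (adjusted p = 5.45e-06). Stress factors Ddit3 and Atf4 and the chaperone Hspa5 differed by 0.45, 0.08 and -0.19 and were not called.

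Targets of the oxidant sensor NRF2 fell in 2 of 11 cases (5 without pool 12, and 0 without pool 19 or pool 20). Over all genes tested 12.1% were higher and 11.7% lower, so 2 calls in a list of this size are near that background. Hmox1, haem oxygenase, had 10.64, 10.15, 9.94 and 10.14 with MEHP, against 11.19, 10.71, 10.57 and 10.71 with vehicle, a difference of -0.58 ± 0.15 (adjusted p = 0.00383). Among 11 xenobiotic genes 2 rose and 2 fell, and the fall of Ephx1, the microsomal epoxide hydrolase, was the firmest at -0.68 ± 0.12 (adjusted p = 1.41e-05). The called rises were 4 without pool 12 and 0 without pool 19 or pool 20. No interferon-response gene was called (0 of 13; 1 with an unadjusted p under 0.05), and 1 was lower with pool as a block or without pool 12. Of 14 inflammation genes 2 fell: Lif, a cytokine, by 0.83 ± 0.16 (adjusted p = 0.000131), and Ptgs2, the inducible prostaglandin synthase COX-2. Ptgs2 had 4.40, 5.11, 4.03 and 3.78 with MEHP, against 6.00, 6.62, 5.43 and 6.16 with vehicle, a difference of -1.72 ± 0.44 (adjusted p = 0.00284, and 0.0635 without pool 20), with no overlap.

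The same pools gave MEHP and vehicle arrays after 1 day, which allowed the effect of day 4 to be compared with that of day 1. After 1 day 54 genes were higher (0.362% of those tested) and 24 lower (0.161%). The effect of MEHP was more positive at day 4 than at day 1 for 640 genes (4.29%) and more negative for 309 (2.07%). Those counts also rested on pools 19 and 20, since they were 76 and 2 without pool 19 and 87 and 6 without pool 20; without pool 12 the count of more negative effects was 755, and with pool as a block it was 557.

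Some fat cell genes were already called at day 1, with effects not detectably different from those of day 4. Angptl4 differed by 1.84 ± 0.18 at day 4 and by 2.22 ± 0.18 at day 1 (adjusted p at day 1 = 1.3e-11), and the effects of the days did not differ detectably (difference -0.37 ± 0.25, adjusted p = 0.442). Fabp4 differed by 2.18 ± 0.20 at day 4 and by 1.87 ± 0.20 at day 1, with a difference of 0.31 ± 0.28 (adjusted p = 0.593). Adipoq differed by 1.43 ± 0.33 at day 4 and by 1.87 ± 0.33 at day 1, with a difference of -0.44 ± 0.46 (adjusted p = 0.668). These genes were called on both days.

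Other genes called at day 4 had a larger effect on that day than at day 1. Cox8b averaged 7.67 ± 1.06 with MEHP and 3.33 ± 0.21 with vehicle at day 4, and 3.11 ± 0.46 with MEHP and 2.98 ± 0.32 with vehicle at day 1 (SD, n = 4 each), so the effect was larger at day 4 by 4.21 ± 0.73 (limma adjusted p = 0.00037). Srebf1 averaged 9.15 ± 0.62 with MEHP and 7.47 ± 0.14 with vehicle at day 4, and 7.88 ± 0.24 with MEHP and 7.84 ± 0.08 with vehicle at day 1, a difference of effects of 1.64 ± 0.28 (adjusted p = 0.000294). Sptlc3, Adig, the acute-phase protein Orm1 and the phosphatase inhibitor Ppp1r1a likewise had effects larger at day 4 by 4.17 ± 0.74, 3.70 ± 0.56, 3.68 ± 0.65 and 3.57 ± 0.57 (adjusted p from 6.45e-05 to 0.000493). These 6 calls were kept without any 1 pool. Of the lists, 12 of 17 fat synthesis genes had a larger effect at day 4, as did 17 of 26 adipocyte genes (8 without pool 19, 10 without pool 20) and 18 of 24 fatty acid oxidation genes (2 without pool 19 or pool 20).

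The effect on several bone genes was more negative at day 4 than at day 1. Fmod averaged 6.91 ± 0.50 with MEHP and 9.77 ± 0.95 with vehicle at day 4, and 9.47 ± 0.28 with MEHP and 9.98 ± 0.10 with vehicle at day 1, a difference of effects of -2.35 ± 0.43 (adjusted p = 0.000723, and 0.0814 without pool 19). Alpl averaged 8.19 ± 0.37 with MEHP and 10.48 ± 0.80 with vehicle at day 4, and 10.16 ± 0.19 with MEHP and 10.49 ± 0.13 with vehicle at day 1, a difference of effects of -1.96 ± 0.39 (adjusted p = 0.00136; 0.0953 without pool 19 and 0.089 without pool 20). Col1a1 differed by -1.39 ± 0.18 at day 4 and -0.04 ± 0.18 at day 1, a difference of effects of -1.36 ± 0.25 (adjusted p = 0.000791, and 0.0953 without pool 19). Sp7 was lower by 1.03 ± 0.44 at day 1, which was not called (adjusted p = 0.533), and the difference of effects was not called either (-1.64 ± 0.62, adjusted p = 0.115; 0.0125 without pool 12). In the osteoblast list 6 of 16 genes had a more negative effect at day 4, a count of 11 without pool 12, 10 with pool as a block, 1 without pool 20 and 0 without pool 19.

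**Figure D4:**
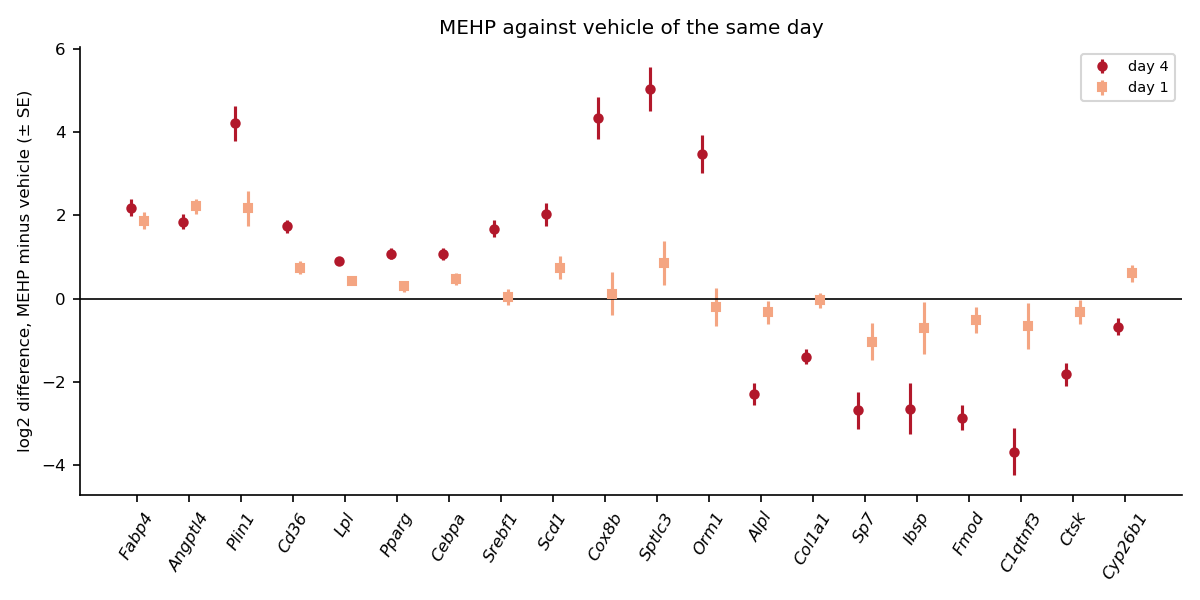
Log2 difference, MEHP minus vehicle of the same day (y axis), with its standard error, for 20 genes at day 4 (dark red circles) and day 1 (light squares), 4 arrays a group. Fabp4 and Angptl4 have differences near 2 on both days, while Cox8b, Srebf1, Alpl and Col1a1 lie near 0 at day 1 and away from 0 at day 4.

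MEHP and Rosi cultures of day 4 were compared directly, at a Rosi dose of 100 nM and an MEHP dose that the labels do not give. With MEHP 1902 genes were higher than with Rosi (12.8% of those tested) and 1995 were lower (13.4%); without pool 20 these counts were 801 and 1150, and in a fit of the 8 MEHP and Rosi arrays alone 180 and 174. Of 26 adipocyte genes 10 were lower with MEHP than with Rosi and none was higher (median -0.52), a count of 5 without pool 12 and 4 in the fit of the 8 arrays alone. Cebpa differed by -0.43 ± 0.15 (adjusted p = 0.0274, 0.43 without pool 12 and 0.121 without pool 15), and Cd36 by -0.42 ± 0.16 (adjusted p = 0.0479, 0.123 without pool 12, 0.0966 without pool 19 and 0.179 without pool 20). Fabp4, Pparg, Adipoq, Alpl and Col1a1 were not called. Fabp4 averaged 12.26 ± 0.09 with MEHP and 12.39 ± 0.10 with Rosi (difference -0.13 ± 0.20, 95% interval -0.53 to 0.27, adjusted p = 0.69). Pparg differed by -0.16 ± 0.14 (95% interval -0.44 to 0.11), Adipoq by -0.13 ± 0.33 (-0.80 to 0.53), Alpl by 0.00 ± 0.27 (-0.55 to 0.55) and Col1a1 by -0.03 ± 0.18 (-0.40 to 0.33). None of the 16 osteoblast genes was called in this comparison (2 with an unadjusted p under 0.05).

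Genes of the oxidative and brown fat programmes were lower with MEHP than with Rosi: 22 of 22 respiratory chain subunits, 18 of 24 fatty acid oxidation genes, 14 of 19 peroxisome genes and 7 of 10 thermogenic genes. A fit of the 8 MEHP and Rosi arrays alone called 1, 2, 2 and 0 of them. Within those lists the median differences were -0.64, -0.63, -0.62 and -1.41. Cyp2e1, a cytochrome P450 of liver and fat, averaged 5.19 ± 1.09 with MEHP and 9.37 ± 0.58 with Rosi, a difference of -4.18 ± 0.32 (adjusted p = 2.89e-12). Elovl3 averaged 6.26 ± 1.54 with MEHP and 10.09 ± 1.31 with Rosi, a difference of -3.83 ± 0.53 (adjusted p = 1.93e-06). The desaturase Scd3 (-2.60 ± 0.40), the gluconeogenic enzyme Pck1 (-2.57 ± 0.37) and the retinol dehydrogenase Dhrs9 (-2.44 ± 0.42) followed, with adjusted p from 2.91e-06 to 3.98e-05. For each of these 5 genes the mean with MEHP lay between those of Rosi and vehicle.

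In the other direction, 17 of 22 macrophage genes (10 without pool 20), 20 of 23 cell cycle genes and 7 of 14 stromal progenitor genes were higher with MEHP than with Rosi. Marco, a scavenger receptor of macrophages, averaged 7.86 ± 0.89 with MEHP and 5.65 ± 0.79 with Rosi, a difference of 2.20 ± 0.38 (adjusted p = 4.8e-05). Abi3bp, a matrix protein, averaged 8.93 ± 0.25 with MEHP and 7.07 ± 0.60 with Rosi, a difference of 1.86 ± 0.42 (adjusted p = 0.000865). A variable segment of the immunoglobulin kappa chain (2.69 ± 0.77, adjusted p = 0.00792), the lectin Fcna (2.24 ± 0.59, 0.00375) and the hyaluronan receptor Lyve1 (2.15 ± 0.75, 0.0292) completed the 5 largest. The kappa segment was not called without pool 15 (0.0642), Fcna without pool 20 (0.0599), nor Lyve1 without pool 12, 19 or 20 (0.104, 0.208 and 0.243). In the fit of the 8 arrays alone 2 macrophage genes and 1 cell cycle gene were called higher.

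MEHP and TPhP cultures of day 4, neither with a dose in the labels, differed in 1 gene in each direction (0.00671% of those tested). Of the 14911 genes tested, 214 were higher and 329 lower at an unadjusted limma p under 0.05. Ptges, a prostaglandin E synthase, averaged 6.91 ± 0.37 with MEHP, 5.93 ± 0.31 with TPhP and 5.70 ± 0.24 with vehicle, a difference of 0.98 ± 0.16 between MEHP and TPhP (adjusted p = 0.00558). Sfrp2, a secreted modulator of Wnt signalling, averaged 5.89 ± 0.46 with MEHP, 7.11 ± 0.43 with TPhP and 8.20 ± 0.81 with vehicle, a difference of -1.22 ± 0.23 (adjusted p = 0.0181). When its probe sets were averaged, Sfrp2 differed by -0.69 and was not called (adjusted p = 0.368). Neither gene was called in a fit of the MEHP and TPhP arrays alone. The Ptges call was lost without pool 15, 19 or 20 (adjusted p 0.0726, 0.0937 and 1) and the Sfrp2 call without pool 12, 19 or 20 (0.504, 1 and 0.224).

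Intervals show how far an undetected difference from TPhP could reach. For Fabp4 the difference of MEHP from TPhP was 0.00 ± 0.20 (95% interval -0.40 to 0.41), for Plin1 -0.03 ± 0.42 (-0.89 to 0.82) and for Pparg -0.15 ± 0.14 (-0.42 to 0.13). For Alpl it was -0.91 ± 0.27 (-1.47 to -0.36) and for Sp7 -1.06 ± 0.44 (-1.95 to -0.17), intervals that lie below 0 without the difference passing the adjusted threshold. The mean level over the 16 osteoblast genes was 7.34, 7.84, 6.93 and 7.03 with MEHP, against 8.65, 7.90, 7.44 and 7.26 with TPhP. MEHP and TPhP thus lay farthest apart in pool 12, where the vehicle mean was 7.92. Elovl3 differed by 1.53 ± 0.53 (0.46 to 2.61, adjusted p = 1). Over lists the median difference of MEHP from TPhP was -0.02 for adipocyte genes, -0.52 for osteoblast genes and 0.33 for thermogenic genes. Limma called no member of the 35 lists, and 37 of the 475 list entries tested had an unadjusted p under 0.05.

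**Figure D5:**
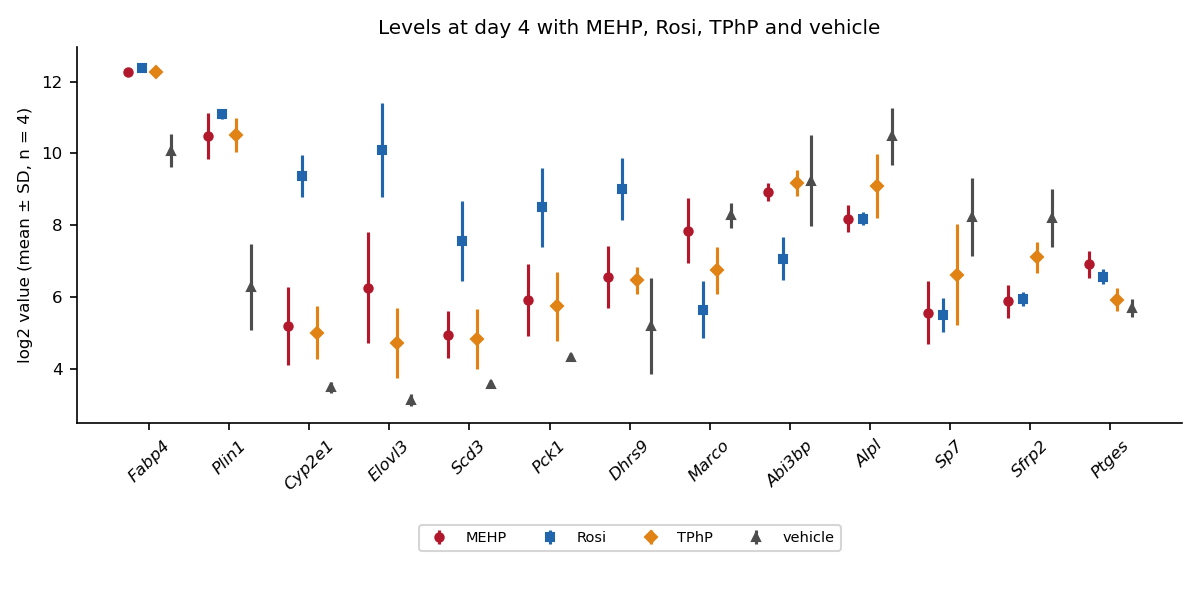
Log2 expression value (y axis; mean and SD of 4 arrays) of 13 genes at day 4 with MEHP (red), Rosi (blue), TPhP (orange) and vehicle (grey). Fabp4 and Plin1 stand at similar levels with the 3 compounds, and Cyp2e1, Elovl3, Scd3, Pck1 and Dhrs9 are highest with Rosi. Mean Ptges is higher and mean Sfrp2 lower with MEHP than with TPhP, calls lost when some single pools were left out.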

How the data were processed

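RNA of 52 marrow cultures, 13 groups of 4, had been hybridised to Affymetrix mouse gene arrays, 1 array per culture. The deposited table gives log2 expression values of 41345 probe sets that the authors made in R 3.3.1 with the oligo package, per the submitters' processing notes; how background and normalisation were handled is not stated in the sources used here. Arrays limit precision through their number, 4 a group, and through signal near background.

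Gene names came from the platform annotation: 23521 probe sets carried 1 gene, 1814 several and 16010 none; 23328 matched a current gene record, which changed 0 symbols. The probe set with the highest mean stood for each gene (1082 genes had several). Genes above the table's median on 4 or more arrays were tested, and 7269 were not. All 13 group means were fitted in limma 3.58.1 (R 4.3.3; lmFit, eBayes, two-sided, 39 residual degrees of freedom). P-values were adjusted by Benjamini and Hochberg's method (Benjamini-Hochberg) over the 14911 genes. Intervals are 95%, unadjusted.

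Pool numbers paired the arrays, since the labels make each pool 1 experiment, but the main fit did not use the pairing. Deviations of the paired MEHP and vehicle arrays correlated at 0.43 to 0.48, and those of different pools at -0.43 to 0.41. Alternatives were pool as a block, a fit of only the arrays compared, cyclic loess, means of probe sets, other filters, an intensity trend and each pool left out.

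Genes were named as the 10 largest rises and falls called with the same sign in all pools, up to 4 called members of each list (or the lowest p), 30 key genes, and the 5 largest calls each way of the other contrasts. Gene models without a regular symbol were passed over in the rankings by size. Further genes were chosen after their values were seen. The comparison, the lists and key genes were chosen with earlier results of these data known. Some list members were not analysed here.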

Additional observations from a re-analysis of the deposited data

Results flagged for a closer look

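In 10 of the 408 groups of 4 arrays behind the named genes, 1 array lay far from the other 3 (2.45%, where chance gives about 1 in 20). With MEHP these were pool 20 for Aspn (7.00) and for the endothelial receptor Tek (5.19), and pool 15 for Rarb (4.48) and the osteoblast membrane protein Ifitm5 (5.52). With vehicle they were all in pool 12: Mlxipl (4.27), the contractile protein Tpm1 (8.07), the transcription factor Klf9 (9.44), Adipoq (7.61), Cpt1a (8.88) and the peroxisomal enzyme Ehhadh (5.82). All 408 groups came from the same 8 arrays, so they were not independent of each other.

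The effect of MEHP differed between the days, by an interaction in limma, for 640 genes with a more positive effect at day 4 and 309 with a more negative one. Named genes with a more positive effect were Cox8b (4.21), Sptlc3 (4.17), Adig (3.70), Orm1 (3.68), Ppp1r1a (3.57), Plin1 (2.04), Srebf1 (1.64), Scd1 (1.28), Cd36 (1.00), Pparg (0.79) and Lpl (0.46). Those with a more negative effect were C1qtnf3 (-3.02), Tnn (-2.56), P2rx2 (-2.42), Fmod (-2.35), Clec11a (-2.30), Alpl (-1.96), Ctsk (-1.49), Col1a1 (-1.36) and Cyp26b1 (-1.29). Without pool 19 the adjusted p was 0.221 for C1qtnf3, 0.207 for Tnn, 0.187 for P2rx2, 0.144 for Clec11a, 0.281 for Plin1, 0.163 for Cd36, 0.0968 for Pparg, 0.264 for Lpl, 0.313 for Scd1, 0.181 for Ctsk and 0.125 for Cyp26b1. Without pool 20 it was 0.4 for C1qtnf3, 0.261 for Tnn, 0.175 for P2rx2, 0.164 for Clec11a, 0.0735 for Plin1, 0.121 for Cd36, 0.126 for Pparg, 0.344 for Lpl, 0.317 for Ctsk and 0.153 for Cyp26b1. Without pool 12 it was 0.137 for Lpl and 0.141 for Scd1, and without pool 15 0.131 for Plin1 and 0.127 for Scd1.

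Probe sets left out of the comparison also differed between MEHP and vehicle at day 4. Of 1100 tested probe sets annotated to several genes 51 were higher and 32 lower, and of 7061 tested probe sets with no gene name 151 were higher and 102 lower. They were fitted and adjusted apart from the genes, of which larger shares were called, 12.1% higher and 11.7% lower.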

How the results depend on the processing

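Of the 166 called genes among 204 named for MEHP against vehicle at day 4, 109 were called under every alternative that tested them (the stricter filter tested 152 of the 166), and the direction of 0 called genes turned. The call was lost by 51 genes in a fit of only the arrays compared, which has fewer residual degrees of freedom, and by 33, 31, 3 and 1 where pools 20, 19, 12 and 15 were left out in turn. Pool as a block lost 0 of them, and cyclic loess 1. The same alternatives were applied to the counts of the gene lists and to further named genes after seeing the data.

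A fit of only the arrays compared gave 716 higher and 332 lower genes against vehicle, 298 and 78 for the difference between days, 180 and 174 against Rosi, and 0 and 0 against TPhP. Leaving out 1 pool gave 949 to 1889 higher and 554 to 2101 lower genes against vehicle, 76 to 829 and 2 to 755 between days, 801 to 1726 and 1150 to 1802 against Rosi, and 0 to 1 in each direction against TPhP. With pool as a replicate block the counts against vehicle were 2031 higher and 2199 lower, those between days 859 and 557, and 2 genes were higher than with TPhP. The block with 1 pool left out gave 1189 to 2128 higher and 888 to 2687 lower genes against vehicle: 1189 higher without pool 20, and 2687, 888 and 902 lower without pools 12, 19 and 20. The mean over a gene's probe sets left 0 genes lower than with TPhP. The causes of the changes with pools were not tested. Where the lower group lay near the table's median or below it, a log2 difference is limited by background. Sptlc3, Cox8b, Adig, Slc13a5, Elovl3, Cidea, Rarb and Ucp3 were among such genes. Pools were separate experiments of pooled animals. The p-values of the main fit rest on the spread among arrays within all 13 groups, which came from the same 4 pools. That fit did not pair MEHP and vehicle arrays by pool, and it treated arrays of the same pool as independent.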
